A study of Mus musculus with 18 samples.

Results

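The genes described here encode the pore-forming and accessory subunits of the voltage-gated sodium and calcium channels. They were chosen by name alone, as the protein-coding genes of the deposited count table whose symbols are Scn followed by a number and a letter a or b, Cacna1a to Cacna1i, Cacnb1 to Cacnb4, or Cacna2d1 to Cacna2d4. The rule found 31 of the 55421 genes in the table, 10 sodium α, 4 sodium β, 9 calcium α1, 4 calcium β and 4 calcium α2δ subunits. Of these, 27 had enough counts to be tested, among 20914 genes tested in all, and Scn4a, Scn10a, Scn11a and Cacna1f did not.

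A sodium channel is a single large α subunit that opens when the membrane depolarizes and carries the upstroke of the action potential, with β subunits that adjust its gating and anchor it at the cell surface. A calcium channel is likewise built around an α1 pore. Its intracellular β subunit and extracellular α2δ subunit bring the pore to the membrane, where calcium entry drives transmitter release and signalling to the nucleus. Scn4b, the sodium β4 subunit, is known for its high level in the spiny projection neurons of the striatum, where it shapes the resurgent sodium current.

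RNA from the striatum was sequenced from 18 mice on the C57BL/6 background (C57BL/6J in the study’s methods), between 12 and 14 months of age, with 1 library per mouse. WT mice (n = 5) carried neither change. zQ175 mice (n = 5) carry an expanded CAG repeat knocked into their own huntingtin gene, a model of Huntington’s disease that expresses the mutant protein in every cell that uses the gene. CK2α’(±) mice (n = 3) have lost 1 allele of Csnk2a2, the gene of the kinase subunit CK2α’, in all tissues, and zQ175:CK2α’(±) mice (n = 5) carry both changes. All animals were perfused with heparin in PBS before the striatum was frozen. The zQ175 allele was heterozygous.

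Several libraries stood apart. Csnk2a2, the targeted gene, was at 14.7 to 19.9 CPM (counts scaled to library size by the TMM method) in the mice with 1 CK2α’ allele and at 29.4 to 37.5 CPM in the others. WT replicates 4 and 5 held fewer striatal transcripts than the other WT mice. In them Adora2a, an adenosine receptor of indirect pathway neurons, was at 48.9 and 62.0 CPM, against 119.8 to 174 CPM in WT replicates 1 to 3 and 33.2 to 57.4 CPM in zQ175 mice. Neurod2, a transcription factor of excitatory neurons and 1 of 10 cortical neuron markers, was at 9.77 and 9.22 CPM in these mice. The other WT mice held 0.448 to 1.73 CPM and zQ175 mice 4.41 to 42.5 CPM. All 10 cortical markers, however, summed to 279.3 and 264.2 CPM in WT replicates 4 and 5. These sums lay inside the 229.6 to 281.9 CPM of the other WT mice and below the 291.7 to 550.0 CPM of zQ175 mice. The oligodendrocyte markers summed to 5399 and 5927 CPM in them, above the 3525 to 5302 CPM of zQ175 mice. The group of WT replicates 4 and 5 was kept as labelled, and results are also given without them. In zQ175 replicate 1 the 8 thalamic neuron markers summed to 1338.5 CPM, where no other library passed 685 CPM, and in zQ175 replicate 5 the 10 cortical neuron markers summed to 550.0 CPM, where no other passed 337 CPM. Xist was over 900 CPM in 4 of 5 WT, 2 of 5 zQ175, 1 of 3 CK2α’(±) and 4 of 5 zQ175:CK2α’(±) mice. The study’s methods list females and males in every group, in unequal numbers, with as many females in each group as mice over 900 CPM here. By those numbers females made up more of the WT than of the zQ175 group. The labels tie no sex to a mouse. Total counts lay between 13612381 and 22702547 per library, of which the 31 genes took between 0.378% and 0.4905%.

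Per length, Scn4b was the most abundant of the 31 genes. CPM per kilobase of exon (RPKM), averaged over the 18 mice, gave Scn4b at 69.0 ± 37.6 (SD) and Scn2b, the sodium β2 subunit, at 45.9 ± 5.13. Below them came the main α subunits of adult neurons, Scn2a at 28.3 ± 3.34 and Scn8a at 26.1 ± 2.33 RPKM, with the calcium β subunits Cacnb1 at 26.7 ± 3.75 and Cacnb4 at 24.5 ± 2.20 RPKM between and beside them. These 4 levels lay within their spread of one another. Of the calcium pores, Cacna1e (R-type) and Cacna1a (P/Q-type) stood at 19.4 ± 4.22 and 19.3 ± 2.05 RPKM and could not be separated, followed by Cacna1h (T-type) at 15.6 ± 2.49, Cacna1b (N-type) at 14.6 ± 1.29 and Cacna1i (T-type) at 14.5 ± 1.91 RPKM. The L-type pores Cacna1c and Cacna1d were lower, at 8.88 ± 1.19 and 5.67 ± 0.569 RPKM. Scn9a, Cacna2d4 and Scn7a averaged between 0.222 and 0.858 RPKM. The muscle channel Scn4a, the sensory neuron channels Scn10a and Scn11a and the retinal channel Cacna1f had at most 14 counts in any library.

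**Figure D1:**
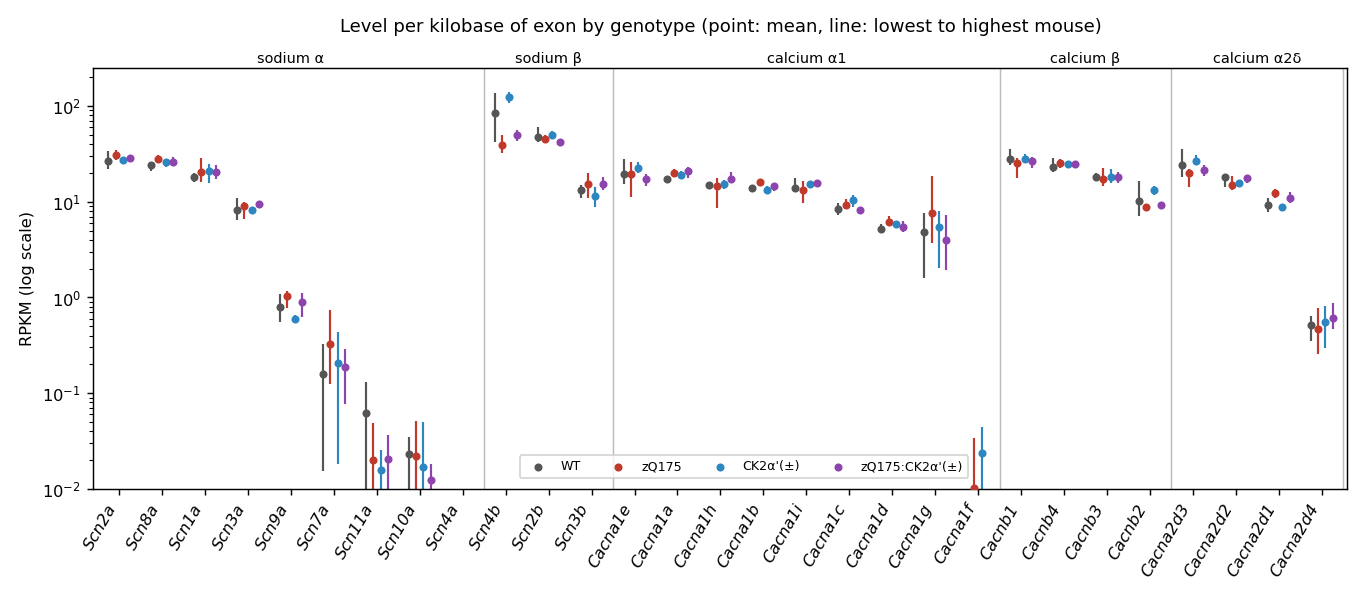
Level of each gene described here in RPKM (log axis, genes grouped by subunit family and ordered by level), with a point for the mean of each genotype and a line from the lowest to the highest mouse. Scn4b has the highest mean over all mice, and Cacna1g has the widest range among the genes above 1 RPKM. Means under 0.01 RPKM fall below the axis.

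Scn4b fell with the zQ175 allele, and no other channel gene fell as far. Its level was 492, 687, 478, 239 and 210.3 CPM in WT mice, 159, 199.8, 180.1, 246 and 200.2 CPM in zQ175 mice, 540.4, 628 and 700.5 CPM in CK2α’(±) mice, and 278, 232, 238.5, 268 and 214 CPM in zQ175:CK2α’(±) mice. WT replicates 4 and 5 thus lay among the mice with the zQ175 allele, while WT replicates 1 to 3 and all 3 CK2α’(±) mice lay above every one of them. In zQ175 against WT mice the log2 fold change was -1.095 ± 0.22 (SE), with an adjusted p (Benjamini-Hochberg over all genes tested, FDR) of 0.0469 in edgeR’s quasi-likelihood test, and without WT replicates 4 and 5 it was -1.49 (FDR = 1.13e-05). The call was lost without WT replicate 1 (-1.05, FDR = 0.119), WT replicate 3 (-1.04, FDR = 0.155) or zQ175 replicate 5 (-1.101, FDR = 0.107), and without zQ175 replicates 1 and 5 together (-1.01, FDR = 0.245). Fewer cells of a type and less RNA per cell cannot be told apart in bulk tissue.

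The zQ175 allele was also compared within mice with 1 CK2α’ allele, a contrast that holds no WT mouse, although all 18 libraries still set the spread in the fit. This comparison was chosen late, with the values already known. In it Scn4b was lower in every zQ175:CK2α’(±) mouse than in any CK2α’(±) mouse. The log2 fold change was -1.34 ± 0.25 (edgeR FDR = 0.0335), and -1.34 (edgeR FDR = 2.50e-05) in a fit of these 8 mice only. The call was lost without CK2α’(±) replicate 2 (-1.33, FDR = 0.1004) or replicate 3 (-1.25, FDR = 0.227). The zQ175 effect averaged over both CK2α’ genotypes was -1.22 ± 0.17 (edgeR FDR = 0.0012), and it passed in all 18 fits that left out a mouse, with values between -1.30 and -1.11. Between zQ175:CK2α’(±) and WT mice Scn4b was at -0.78 ± 0.22 (FDR = 0.318), and at -1.16 (FDR = 0.0002) without WT replicates 4 and 5.

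Loss of a CK2α’ allele did not move Scn4b past the threshold. Between zQ175:CK2α’(±) and zQ175 mice the log2 fold change was 0.32 ± 0.22 (95% interval -0.14 to 0.78, edgeR FDR = 0.871) and the groups overlapped. Between CK2α’(±) and WT mice it was 0.56 ± 0.25 (unadjusted p = 0.035, edgeR FDR = 0.999), and 0.17 without WT replicates 4 and 5. The interaction, the zQ175 effect in mice with 1 CK2α’ allele minus that in mice with 2, was -0.24 ± 0.34 (edgeR FDR = 0.976). It lay between -0.50 and -0.07 when single mice were left out, lowest without WT replicate 2 and highest without WT replicate 5, and turned to 0.15 without WT replicates 4 and 5.

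The level of Scn4b moved with the markers of its cell type. The 10 striatal projection neuron markers, none of which was at 0 in any mouse, summed to 1993 to 5004 CPM in WT, 1311 to 2551 CPM in zQ175, 3579 to 4509 CPM in CK2α’(±) and 2117 to 2863 CPM in zQ175:CK2α’(±) mice. The 6 libraries with the most Scn4b were also the 6 with the highest marker sum. Of the 10 markers, 6 fell and none rose in the averaged zQ175 effect, with a median log2 fold change of -0.69, while 1 fell in zQ175 against WT mice. What part the markers’ cells had in the Scn4b result was not tested.

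Markers of other cells differed between the groups as well, and their part in the channel results was not tested. The 6 oligodendrocyte markers summed to 5399 to 7459 CPM in WT and 3525 to 5302 CPM in zQ175 mice, and 4 of the 6 were called lower. The cortical neuron markers summed to 230 to 282 CPM in WT and 292 to 550.0 CPM in zQ175 mice, with 1 of 9 tested called higher, and the 9 interneuron markers to 299 to 350 CPM and 175 to 285 CPM, with none called. Of 6 microglial markers 1 was called lower, and none of 6 astrocyte, 4 oligodendrocyte precursor or 7 endothelial and mural markers was called. The 4 choroid plexus markers summed to 951 to 3028 CPM in WT replicates 1 and 3, CK2α’(±) replicate 1 and zQ175:CK2α’(±) replicate 2 and to at most 15.4 CPM elsewhere, and the 4 muscle genes to at most 3.54 CPM in any library.

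**Figure D2:**
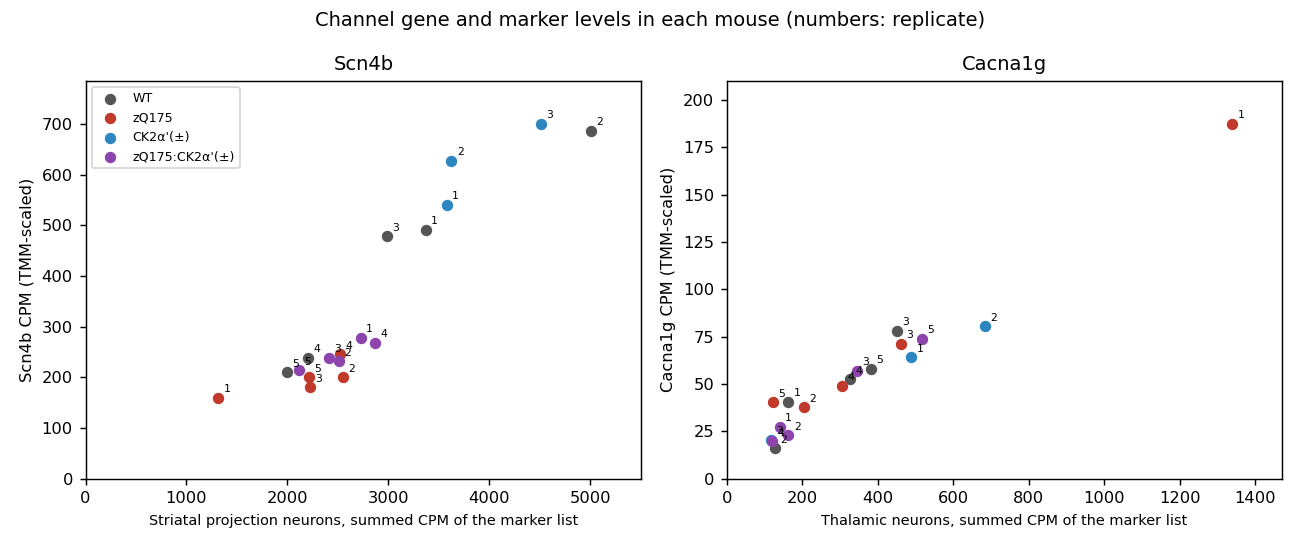
Left, Scn4b (CPM) against the summed CPM of 10 striatal projection neuron markers. Right, Cacna1g (CPM) against the summed CPM of 8 thalamic neuron markers. Each point is 1 mouse, coloured by genotype and numbered by replicate. WT replicates 4 and 5 sit with the zQ175 mice on the left, and zQ175 replicate 1 stands alone at 188 CPM on the right.

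Scn4b (GRCm38 chromosome 9, 45138395 to 45154152, plus strand) has Scn2b as its neighbour, whose last base lies 8324 bases before the first base of Scn4b on the same strand. The promoter windows of both genes, 250 bases before to 50 bases after the RefSeq start on GRCm38.p6, are shown because neighbouring genes of 1 family differed in how much they varied between mice. Across the 18 mice the highest level of Scn4b was 4.39 times the lowest, and that of Scn2b 1.52 times. The window of Cacna2d1, the other gene called in zQ175 against WT mice, is given beside them.

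Scn4b, chr9:45138374-45138673, plus strand: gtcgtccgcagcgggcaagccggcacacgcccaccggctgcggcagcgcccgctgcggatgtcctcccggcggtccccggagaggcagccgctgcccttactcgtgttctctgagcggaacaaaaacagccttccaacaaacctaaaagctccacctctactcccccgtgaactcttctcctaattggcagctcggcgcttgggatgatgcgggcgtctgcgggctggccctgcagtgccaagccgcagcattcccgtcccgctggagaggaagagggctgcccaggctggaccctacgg

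Scn2b, chr9:45117626-45117925, plus strand: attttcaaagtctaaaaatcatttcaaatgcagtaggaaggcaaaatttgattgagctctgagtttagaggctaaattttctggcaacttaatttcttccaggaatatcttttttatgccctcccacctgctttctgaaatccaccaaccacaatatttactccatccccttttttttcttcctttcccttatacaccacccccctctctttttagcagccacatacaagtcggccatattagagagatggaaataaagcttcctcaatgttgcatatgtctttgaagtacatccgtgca

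Cacna2d1, chr5:15934441-15934740, plus strand: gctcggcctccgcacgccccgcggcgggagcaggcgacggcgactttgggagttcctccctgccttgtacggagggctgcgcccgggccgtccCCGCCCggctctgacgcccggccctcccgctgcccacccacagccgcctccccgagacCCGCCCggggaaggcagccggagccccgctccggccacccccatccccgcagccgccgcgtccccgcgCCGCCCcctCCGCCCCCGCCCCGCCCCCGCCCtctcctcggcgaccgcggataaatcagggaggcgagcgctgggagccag

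The capitals mark GC boxes, GGGCGG on either strand, including overlapping copies. The Scn4b window is 66.3% G and C with 26 CpG pairs, and the Scn2b window is 38.3% G and C with 2 CpG pairs, beside a median of 52.7% over 32851 promoters. Neither holds a GC box, the cAMP response element TGACGTCA, the TATA element TATAAA or the E box CACGTG on either strand. The Cacna2d1 window is 80% G and C, with 42 CpG pairs and 7 GC boxes, some overlapping. RefSeq promoters were matched for 23 of the 31 genes, 33 windows in all. A GC box was in 13 of them and in 35.7% of all promoters, TATAAA in 2 and in 13.6%, CACGTG in none and in 7.15%, and TGACGTCA in none and in 1.79%.

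In counts over the 27 tested genes, the zQ175 allele was followed by few calls. In zQ175 against WT mice 2 of 27 passed FDR 0.1, Scn4b lower and Cacna2d1 higher, where 1.1% of all tested genes passed, and DESeq2 also called 2, with 855 calls over all genes against 230 with edgeR. An unadjusted p under 0.05 was reached by 7 of 27, beside 13.9% of all genes, and the median log2 fold change was 0.13, beside 0.00 for all genes. Cacna1a and Cacna1b were the 2 genes whose zQ175 mice all lay above all WT mice, a separation that 2.44% of all genes showed in either direction. The count of calls fell to 0 without WT replicate 1, WT replicate 3 or zQ175 replicate 5, where the count over all genes fell from 230 to 10, 0 and 0. It was also 0 without zQ175 replicates 1 and 5 and in a fit of the 10 mice of these groups only, each with 0 calls over all genes. Without WT replicates 4 and 5 it was 3, with 515 calls over all genes.

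In the averaged zQ175 effect 4 of 27 passed, where 4.9% of all genes did. Scn4b and Cacnb2 fell, and Cacna2d1 and Scn9a rose. An unadjusted p under 0.05 was reached by 9 of 27, beside 16.2% of all genes. With DESeq2 7 passed, with 1513 calls over all genes against 1024 with edgeR, and the edgeR number ranged from 2 to 4 when single mice were left out. Within mice with 1 CK2α’ allele 1 of 27 passed (0.593% of all genes) and 7 had an unadjusted p under 0.05 (9.19%). In this comparison 8 had groups that did not overlap, beside 8.34% of all genes, with 5 mice set against 3. The 8 were Scn4b, Scn2b, Cacnb2, Cacna1c, Cacna1e and Cacna2d3, lower with the zQ175 allele, and Cacna2d1 and Scn3a, higher.

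The comparisons that turn on CK2α’ gave no call among the channel genes with edgeR. In zQ175:CK2α’(±) against zQ175 mice 0 of 27 passed (0.0143% of all genes), none had groups without overlap (1.14%), 3 had an unadjusted p under 0.05 (6.27% of all genes), and DESeq2 called 0. In CK2α’(±) against WT mice 0 of 27 passed (0.0143%), none had groups without overlap (3.2%), 3 had an unadjusted p under 0.05 (4.48%), and DESeq2 called 0. Of the interaction 0 of 27 passed (0.00478%), 3 had an unadjusted p under 0.05 (5.39%), and DESeq2 called 0. In zQ175:CK2α’(±) against WT mice edgeR called 0 of 27 (0.0143%), none had groups without overlap (1.84%), 3 had an unadjusted p under 0.05 (9.13%), and DESeq2 called 1, Cacna1a. Comparisons with WT mice share the same 5 WT libraries, and those with zQ175 mice the same 5 zQ175 libraries, so their values are not independent of one another.

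**Figure D3:**
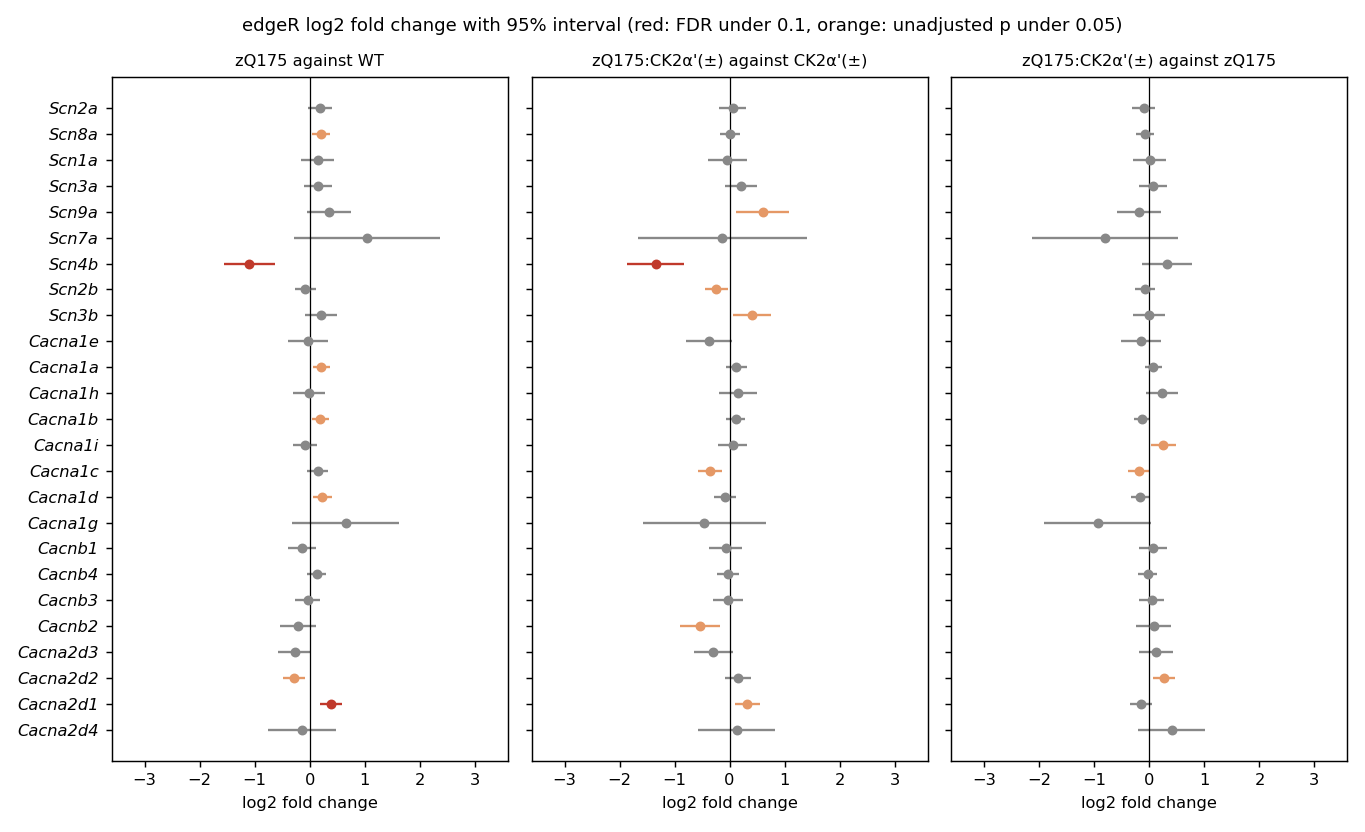
Log2 fold change (horizontal axis) of the tested genes described here with its 95% interval in 3 comparisons, from edgeR, with red for an FDR under 0.1 and orange for an unadjusted p under 0.05. Scn4b is red in both comparisons of the zQ175 allele, Cacna2d1 in the first only, and no gene is red in the comparison of zQ175:CK2α’(±) with zQ175 mice.

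Among the sodium α subunits only the low Scn9a passed in any of the edgeR comparisons. Scn9a, the channel known from pain neurons, was at 12.5, 7.09, 7.76, 14.0 and 10.01 CPM in WT mice, 12.8, 14.8, 14.5, 9.83 and 13.7 CPM in zQ175 mice, 7.22, 7.18 and 8.41 CPM in CK2α’(±) mice and 12.5, 8.90, 7.90, 13.9 and 14.4 CPM in zQ175:CK2α’(±) mice. The groups with the allele overlapped those without it. In the averaged zQ175 effect it rose by 0.48 ± 0.15 on the log2 scale (edgeR FDR = 0.0982), and this call held in 4 of 18 fits that left out a mouse. Within mice with 1 CK2α’ allele the difference was 0.60 ± 0.23 (unadjusted p = 0.0166, edgeR FDR = 0.389).

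Scn8a, the channel of the axon initial segment and nodes, was at 329.6, 405, 379, 410.4 and 381 CPM in WT mice and at 435, 426, 403, 448 and 480.2 CPM in zQ175 mice. Its lowest zQ175 mouse lay below 2 WT mice. The log2 fold change was 0.20 ± 0.08 (unadjusted p = 0.0181, edgeR FDR = 0.254), against 0.01 within mice with 1 CK2α’ allele. Scn2a, Scn1a and Scn3a, the other α subunits of central neurons, had log2 fold changes of 0.19, 0.15 and 0.15 in zQ175 against WT mice, none with an unadjusted p under 0.05. Scn1a was highest in zQ175 replicate 1, at 322 CPM, where the other mice of that group held 179 to 223 CPM and WT mice 179 to 223 CPM. Scn3a was lowest of its group in that mouse, at 83.1 CPM against 120.0 to 126 CPM. Scn7a, an atypical sodium-sensing channel, ranged from 0.112 to 5.39 CPM over the 18 mice and reached an unadjusted p of 0.05 in no comparison. Scn3a, Scn2a, Scn1a, Scn9a and Scn7a lie within 1 cluster on chromosome 2, between 65457118 and 66784914.

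Scn3b and Scn2b had fitted differences of opposite sign for the zQ175 allele, and neither passed FDR 0.1 in the edgeR fit of all 18 mice. Scn3b was at 66.3, 80.1, 59.4, 81.4 and 74.3 CPM in WT, 60.4, 88.1, 82.2, 79.2 and 108 CPM in zQ175, 63.0, 48.0 and 77.5 CPM in CK2α’(±), and 88.4, 78.1, 77.3, 99.4 and 72.9 CPM in zQ175:CK2α’(±) mice. Its groups overlapped, and the averaged zQ175 effect was 0.31 ± 0.11 (edgeR FDR = 0.136), with 0.41 ± 0.16 within mice with 1 CK2α’ allele (edgeR FDR = 0.42). The averaged effect passed without zQ175 replicate 1 (0.36, edgeR FDR = 0.0474) and without zQ175 replicates 1 and 5 (0.31, edgeR FDR = 0.0964), and the difference within mice with 1 CK2α’ allele was 0.25 without CK2α’(±) replicate 2 and 0.59 without CK2α’(±) replicate 3. Scn2b was at 221, 281, 209, 196 and 197 CPM in WT, 231, 192, 211, 206 and 205 CPM in zQ175, 219.9, 229 and 254 CPM in CK2α’(±), and 204, 184, 210.5, 205 and 188 CPM in zQ175:CK2α’(±) mice. The last 2 groups did not overlap, and the averaged effect was -0.16 ± 0.07 (edgeR FDR = 0.244), with -0.24 ± 0.10 within mice with 1 CK2α’ allele (edgeR FDR = 0.46). The averaged effect passed without WT replicates 4 and 5 (-0.21, edgeR FDR = 0.0835).

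The share of Scn4b in the β transcripts was lower in the mice with the zQ175 allele than in CK2α’(±) mice. It held 40.7% ± 12.4 (SD, n = 5) of the summed β RPKM in WT, 26.4% ± 3.57 (n = 5) in zQ175, 51.2% ± 3.16 (n = 3) in CK2α’(±) and 30.9% ± 2.50 (n = 5) in zQ175:CK2α’(±) mice. The share was 26.4% to 55.0% over the WT mice, so it reached down into the range of zQ175 mice. The β subunits together summed to 199.0 ± 37.3 RPKM in WT, 149.7 ± 9.05 in zQ175, 244 ± 16.5 in CK2α’(±) and 159.8 ± 8.53 in zQ175:CK2α’(±) mice, and the α subunits to 79.1 ± 7.14, 89.5 ± 3.34, 83.8 ± 5.75 and 86.2 ± 3.598 RPKM.

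No calcium α1 subunit was called by edgeR in any comparison. Cacna1a, the P/Q-type pore of fast transmitter release, was at 195, 216, 222, 219.6 and 204 CPM in WT mice and at 248, 243, 235, 230.0 and 269.7 CPM in zQ175 mice, without overlap. In the other groups it was at 241, 255 and 214 CPM in CK2α’(±) mice and at 254, 219, 258, 273 and 287 CPM in zQ175:CK2α’(±) mice. Against WT mice the log2 fold change was 0.22 ± 0.08 in zQ175 mice (edgeR FDR = 0.205) and 0.29 ± 0.08 in zQ175:CK2α’(±) mice (edgeR FDR = 0.259, called by DESeq2). Cacna1a lies on chromosome 8, as does Csnk2a2, 10.8 Mb away, and its difference between CK2α’(±) and WT mice was 0.16 ± 0.09 (edgeR unadjusted p = 0.0795). The averaged zQ175 effect was 0.17 ± 0.06 (edgeR FDR = 0.134), and it passed without zQ175:CK2α’(±) replicate 2 (0.20, edgeR FDR = 0.0709).

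Cacna1b, the N-type pore, held 131, 139, 134, 144 and 143 CPM in WT mice and 167, 152, 158, 147 and 168 CPM in zQ175 mice, also without overlap (log2 fold change 0.20 ± 0.07, edgeR FDR = 0.205). Its averaged zQ175 effect was 0.15 ± 0.05 (edgeR FDR = 0.139). Cacna1d, an L-type pore that opens at low voltages, held 74.1 to 89.1 CPM in WT and 84.4 to 107 CPM in zQ175 mice (0.23 ± 0.08, edgeR FDR = 0.193). Exons of Cacna1d share 3.88% of their bases with Chdh on the opposite strand, and whether counting used the strand is not stated.

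Cacna1c, the main L-type pore, had the smallest unadjusted p of the 27 genes in the interaction. It was at 174, 204, 192, 164 and 155 CPM in WT, 226, 177, 205, 179 and 195 CPM in zQ175, 219.8, 249 and 188 CPM in CK2α’(±), and 168, 156, 183, 169.8 and 182 CPM in zQ175:CK2α’(±) mice. The last 2 groups did not overlap and the first 2 did. Its log2 fold change was 0.14 for the zQ175 allele with 2 CK2α’ alleles and -0.35 ± 0.11 with 1 (edgeR FDR = 0.198), an interaction of -0.50 ± 0.14 (unadjusted p = 0.0019, edgeR FDR = 0.811). Loss of a CK2α’ allele gave 0.30 ± 0.11 in mice without zQ175 (unadjusted p = 0.0094, edgeR FDR = 0.999) and -0.20 ± 0.09 in mice with it (unadjusted p = 0.0459, edgeR FDR = 0.778). These were 0.20 without CK2α’(±) replicate 2 and -0.12 without zQ175 replicates 1 and 5. Cacna1d had an interaction of -0.32 ± 0.12 (unadjusted p = 0.0183, edgeR FDR = 0.916).

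Of the T-type pores, Cacna1g varied most between mice. This pore, known for its high level in thalamic relay neurons, was at 40.6, 16.2, 78.1, 52.4 and 58.2 CPM in WT, 188, 37.7, 71.4, 49.1 and 40.4 CPM in zQ175, 64.1, 80.5 and 20.6 CPM in CK2α’(±), and 27.4, 22.97, 57.1, 19.7 and 74.0 CPM in zQ175:CK2α’(±) mice. Its highest mouse, zQ175 replicate 1, was also the highest in the summed thalamic markers, which ran from 128 to 452 CPM in WT, 122 to 1338.5 CPM in zQ175, 116 to 685 CPM in CK2α’(±) and 121 to 517 CPM in zQ175:CK2α’(±) mice, with no marker at 0. None of the 8 thalamic markers passed between zQ175 and WT mice. Their part in the Cacna1g values was not tested. Cacna1i, another T-type pore, was at 96.5 to 163 CPM in zQ175 and 148 to 162 CPM in zQ175:CK2α’(±) mice (0.25 ± 0.11, unadjusted p = 0.0334, edgeR FDR = 0.743). Without zQ175 replicate 1 that difference was 0.16, and without zQ175 replicates 1 and 5 it was 0.11. Cacna1h and Cacna1e reached an unadjusted p under 0.05 in no comparison. Cacna1e ranged from 280.0 CPM in zQ175 replicate 1 to 699 CPM in WT replicate 2.

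Of the calcium β subunits, Cacnb2 fell in the averaged zQ175 effect. It was at 139, 219.6, 121, 93.5 and 98.2 CPM in WT, 119, 121, 111, 115 and 113 CPM in zQ175, 155, 181 and 195 CPM in CK2α’(±), and 125, 126, 127, 114 and 118 CPM in zQ175:CK2α’(±) mice. WT replicates 4 and 5 were the lowest of all 18 mice, and WT replicate 2 the highest, so the zQ175 mice lay inside the WT range. The CK2α’(±) mice all lay above the zQ175:CK2α’(±) mice. The averaged effect was -0.37 ± 0.12 (edgeR FDR = 0.0961) and passed in 5 of 18 fits that left out a mouse, with values from -0.43 to -0.27. Within mice with 1 CK2α’ allele the difference was -0.54 ± 0.18 (edgeR FDR = 0.272). Without WT replicates 4 and 5 the averaged effect was -0.50 (edgeR FDR = 0.0028).

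Between CK2α’(±) and WT mice Cacnb2 differed by 0.40 ± 0.18 (unadjusted p = 0.0363, edgeR FDR = 0.999), by 0.65 (FDR = 0.0499) without WT replicate 2, and by 0.15 (edgeR FDR = 1) without WT replicates 4 and 5. Cacnb3, a neuronal β subunit, was at 58.2 to 90.1 CPM over all mice. Cacnb1, Cacnb3 and Cacnb4 had averaged effects of -0.10, -0.03 and 0.05, and none had an unadjusted p under 0.05 in any comparison. Exons of Cacnb4 share 16.0% of their bases with A430018G15Rik on the opposite strand.

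**Figure D4:**
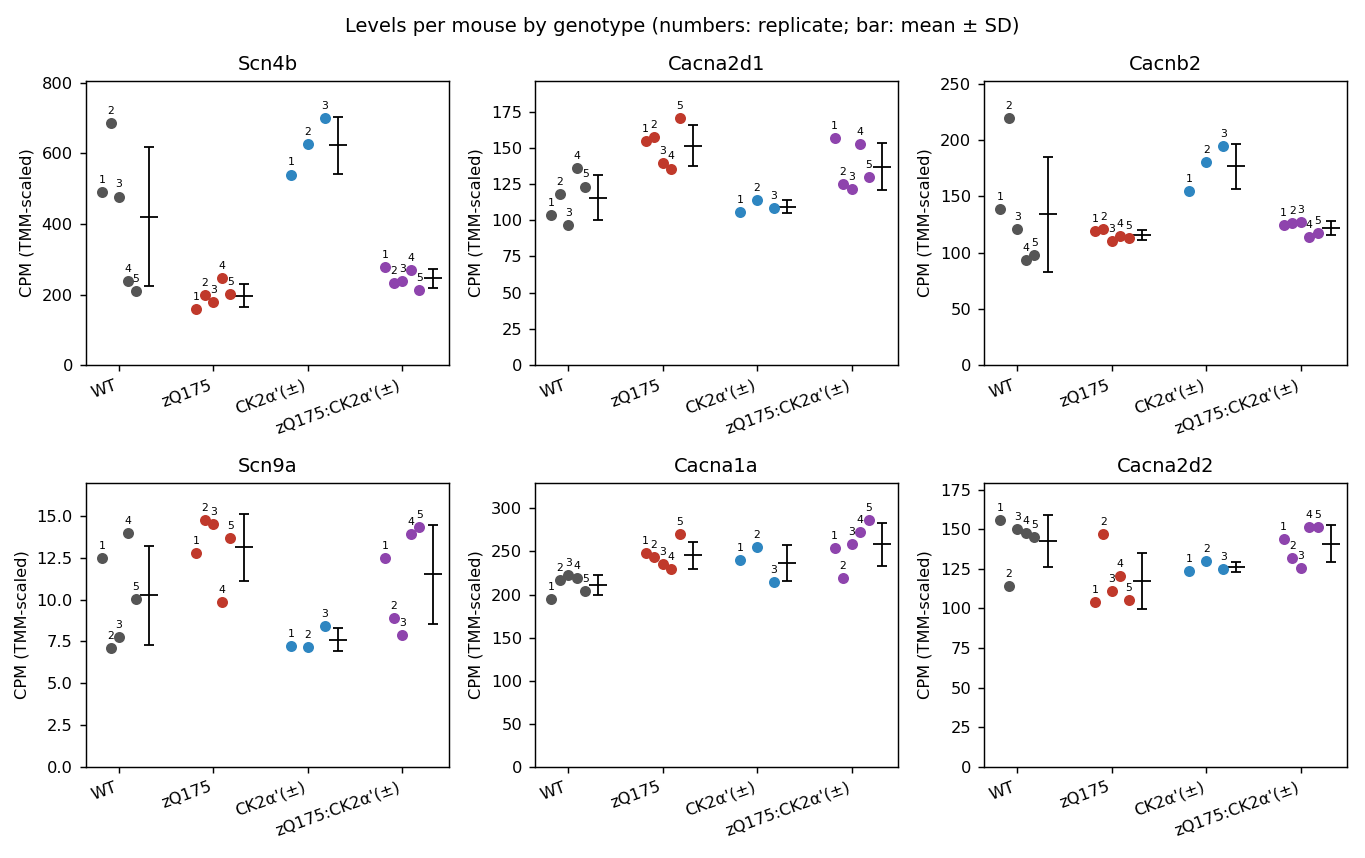
CPM of 6 channel genes in each mouse (vertical axes start at 0), by genotype, with the replicate number beside each point and a bar for mean ± SD. Scn4b is at or below 278 CPM in all mice with the zQ175 allele, in WT replicates 4 and 5, and in no CK2α’(±) mouse. Cacna2d1 is highest in zQ175 mice, at 136 to 171 CPM.

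Of the α2δ subunits, Cacna2d1 passed the test. Cacna2d1, the α2δ-1 subunit that binds gabapentin, was at 104, 118, 96.9, 136 and 123 CPM in WT, 154, 157, 139.8, 136 and 171 CPM in zQ175, 106, 114 and 108 CPM in CK2α’(±), and 157, 125, 121, 152 and 130.2 CPM in zQ175:CK2α’(±) mice. WT replicates 4 and 5 were again the WT mice nearest the zQ175 mice, and replicate 4 just overlapped them. In zQ175 against WT mice Cacna2d1 rose by 0.39 ± 0.10 on the log2 scale (edgeR FDR = 0.0799), and by 0.51 (FDR = 0.0172) without WT replicates 4 and 5. That call was lost without WT replicate 1 or 3 or without any of zQ175 replicates 1, 2, 3 and 5, with an FDR of up to 0.209. The averaged zQ175 effect of 0.36 ± 0.07 (edgeR FDR = 0.0143) passed in all 18 fits that left out a mouse. Within mice with 1 CK2α’ allele, where the groups did not overlap, it was 0.32 ± 0.11 (edgeR FDR = 0.304). Against WT mice, zQ175:CK2α’(±) mice differed by 0.25 ± 0.10 (unadjusted p = 0.0182, edgeR FDR = 0.441), by 0.37 (FDR = 0.131) without WT replicates 4 and 5, and against zQ175 mice by -0.15 ± 0.10 (95% interval -0.34 to 0.05).

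Cacna2d2 in zQ175 mice had an unadjusted p under 0.05 against WT and against zQ175:CK2α’(±) mice. It was at 156, 114, 150.4, 148 and 145 CPM in WT, 104, 147, 111, 120.5 and 105 CPM in zQ175, 124, 130.1 and 125 CPM in CK2α’(±), and 144, 132, 126, 151 and 152 CPM in zQ175:CK2α’(±) mice. The WT and zQ175 groups overlapped through WT replicate 2 and zQ175 replicate 2. The log2 fold change was -0.28 ± 0.10 in zQ175 against WT mice (unadjusted p = 0.009, edgeR FDR = 0.193) and 0.26 ± 0.10 in zQ175:CK2α’(±) against zQ175 mice (unadjusted p = 0.0135, edgeR FDR = 0.643). The first passed without WT replicate 2 or without zQ175 replicate 2. Without zQ175 replicates 1 and 5 the values were -0.18 and 0.16. Its interaction was 0.44 ± 0.15 (unadjusted p = 0.0077, edgeR FDR = 0.832). Cacna2d3 had an averaged zQ175 effect of -0.28 ± 0.11 (unadjusted p = 0.0191, edgeR FDR = 0.199) and of -0.37 (FDR = 0.0529) without WT replicates 4 and 5. Cacna2d4 was at 2.43 to 8.21 CPM over all mice.

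Genes that work beside these channels were read from a list of 47 names, of which 44 were in the table and 41 had enough counts. The list also holds Cacna1s, itself a calcium α1 subunit, which the name rule left out. Between zQ175 and WT mice 1 of the 41 passed (1.1% of all genes) and 7 had an unadjusted p under 0.05 (13.9%). In the averaged effect 4 passed (4.9%) and 9 had an unadjusted p under 0.05 (16.2%), and within mice with 1 CK2α’ allele 1 passed (0.593%) and 6 did so unadjusted (9.19%). In the 4 other comparisons edgeR called none of the 41. An unadjusted p under 0.05 was reached there by 1 gene in zQ175:CK2α’(±) against WT mice (9.13% of all genes), 4 in zQ175:CK2α’(±) against zQ175 mice (6.27%), 2 in CK2α’(±) against WT mice (4.48%) and 1 in the interaction (5.39%). Ryr1, a calcium release channel of the endoplasmic reticulum that is coupled to an L-type channel in muscle, was at 81.4, 153, 130.4, 40.2 and 25.5 CPM in WT, 13.6, 42.7, 25.95, 24.2 and 30.2 CPM in zQ175, 114, 92.3 and 143 CPM in CK2α’(±), and 39.3, 19.7, 23.8, 33.6 and 19.95 CPM in zQ175:CK2α’(±) mice. As with Scn4b, WT replicates 4 and 5 lay among the mice with the zQ175 allele, and the other mice without it lay above. Ryr1 fell by 1.65 ± 0.37 on the log2 scale in zQ175 against WT mice (edgeR FDR = 0.0594). That call was lost without WT replicate 3, without zQ175 replicate 5 and in a fit of these groups only, each with 0 calls over all genes. The log2 fold change was -2.09 ± 0.41 within mice with 1 CK2α’ allele (edgeR FDR = 0.0388) and -1.87 ± 0.28 in the averaged effect (edgeR FDR = 0.0016).

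The other partner genes that passed in the averaged effect were Rimbp2, an active zone protein that ties calcium channels to vesicles, at 0.33 ± 0.09 (edgeR FDR = 0.0519), Nalcn, the sodium leak channel, at 0.18 ± 0.05 (edgeR FDR = 0.0745), and Cacng4, of the family of calcium channel γ subunits and AMPA receptor regulators, at -0.33 ± 0.10 (edgeR FDR = 0.0984). In the comparisons without a call the smallest unadjusted p values included those of Ryr1, Rimbp2 and Nalcn (zQ175:CK2α’(±) against WT), Rem2 and Fgf13 (zQ175:CK2α’(±) against zQ175), Gpd1l, Cbarp and Cacna1s (CK2α’(±) against WT), and Cacng5, Fgf13 and Cbarp (the interaction). Fgf13, an intracellular modulator of sodium channels, was at 0.43 ± 0.15 in zQ175 against WT mice (edgeR FDR = 0.195) and at -0.32 ± 0.15 in zQ175:CK2α’(±) against zQ175 mice (edgeR FDR = 0.780). In zQ175 mice it held 71.1, 52.4, 49.4, 51.6 and 104 CPM, with replicate 5 the highest. The range was 44.4 to 52.9 CPM in WT and 46.8 to 55.9 CPM in zQ175:CK2α’(±) mice.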

How the data were processed

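Per the labels and the study’s methods, the authors sequenced striatal RNA of 18 mice as paired 2x50 reads after a stranded total RNA preparation and made the table with Trimmomatic for trimming, HISAT2 2.1.0 for alignment (build GRCm38) and Subread 1.6.2 for counting. The deposited values are raw counts per gene with each gene’s exon length in bases, as the authors’ counting tool wrote them. The strand setting of the counting is not given in the sources used here.

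From the counts, genes with low values were removed with edgeR’s filterByExpr, libraries were scaled by TMM, and all 18 libraries entered 1 quasi-likelihood fit on genotype (edgeR 4.0.16, R 4.3.3, 14 residual degrees of freedom), with Benjamini-Hochberg adjustment over 20914 genes and a threshold of 0.1. CPM and RPKM were computed on the same library sizes, and log2 levels with a prior count of 2. Symbols came from the reference annotation, and the 300-base promoter windows from RefSeq. All 31 genes are counted, and some are not reported here by name. Each other gene with an adjusted p under 0.1 or an unadjusted p under 0.05 is described, Scn4b in every comparison, and of the partner genes those that passed or otherwise the 3 with the smallest p. The genes, the lists and the rules were chosen with earlier results of these data known. Nothing says that the mice of a group came from separate litters or days, so p-values measure the spread between these mice. Alternatives were DESeq2 1.42.0, DESeq2 size factors, no filter, only the groups compared, a replicate block, Xist as a covariate, a prior count of 0.5 and leaving out each mouse. The scripts were tested on simulated data.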

Additional observations from a re-analysis of the deposited data

Results flagged for a closer look

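In 7 of the 81 gene and group combinations examined (8.64%), 1 mouse lay far from the other 4 of its group by Dixon’s criterion, which chance meets in about 1 in 20. Of these, 4 were zQ175 replicate 1, the library with the highest sum of thalamic markers. In it Cacna1g was at 188 CPM against 37.7 to 71.4 CPM in the other zQ175 mice. Cacna2d3 was at 124 CPM against 180.1 to 190.2 CPM. Cacnb1 was at 79.8 CPM against 116 to 129.7 CPM, and Scn3a at 83.1 CPM against 120.0 to 126 CPM. The other 3 were WT replicate 2. There Cacna1i was at 174 CPM against 124 to 137 CPM in the other WT mice, Cacna2d2 at 114 CPM against 145 to 156 CPM, and Cacnb4 at 259 CPM against 185 to 206 CPM. No cause was tested.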

How the results depend on the processing

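Between zQ175 and WT mice 2 channel genes were called. The number was 0 in a fit of these groups only, 0 without zQ175 replicates 1 and 5, and 0 to 3 when single mice were left out. Over all genes that comparison gave 230 calls, 855 with DESeq2, 451 without a filter, 515 without WT replicates 4 and 5, and 0 in the fit of these groups only. Between zQ175:CK2α’(±) and WT mice 0 were called, and 1 with DESeq2, 1 without a filter and 1 without WT replicates 4 and 5, with all-gene counts of 3, 123, 85 and 217. Between CK2α’(±) and WT mice 0 were called, with 3 calls over all genes, and the number was 0 to 1 over single omissions. The 1 call was Cacnb2 without WT replicate 2 (edgeR FDR = 0.0499), a fit whose all-gene count is not given here. In the averaged zQ175 effect 4 were called, 7 with DESeq2 and 2 to 4 over single omissions, with all-gene counts of 1024, 1513 and 348 to 1161. Within mice with 1 CK2α’ allele 1 was called, 2 without a filter, 3 in a fit of these groups only and 0 to 1 over single omissions, with all-gene counts of 124, 297 and 461 in the first 3 fits. The interaction for Scn4b was -0.24 and turned to 0.15 without WT replicates 4 and 5. The cause of these changes was not tested.

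Replicate numbers did not pair the mice. Over 24 same-numbered pairs the correlation of deviations from the group means was -0.136 to 0.12, 2 pairs were over 0.1, and 1 of 18 libraries correlated best with its own number. With the replicate block 1 channel gene was called between zQ175 and WT mice, 2 in the averaged effect and 0 within mice with 1 CK2α’ allele, and over all genes 98, 519 and 12. Of single-gene values under all alternatives, 645 kept their direction and side of the threshold, 48 lost the call, 19 gained it and 1 reversed. These values include genes that were not called at the start and so could not lose a call. Over single omissions the call between zQ175 and WT mice held for Scn4b in 7 of 10 fits and for Cacna2d1 in 4 of 10. In the averaged effect it held in 18 of 18 for Scn4b and Cacna2d1, 5 for Cacnb2 and 4 for Scn9a. A prior count of 0.5 left the mean log2 level at 7.04.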
